A study of Glycine max with 16 samples.

Results

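The glutathione S-transferases (GSTs) of soybean leaf were followed through 4 physiological states of warming. The members were the probe sets of the array that its platform annotation pairs with exactly 1 gene and whose gene symbol or synonym starts with GST. There were 58 such probe sets of 37 genes, out of 61035 probe sets on the array and 8677 that the annotation pairs with 1 gene. Of the 58, 16 probe sets of 13 genes qualified through a synonym alone. The class was read from the letter after GST in the symbol or synonym. The tau class (GSTU) had 38 probe sets of 26 genes. The others were 7 phi (GSTF), 6 lambda (GSTL), 2 theta (GSTT) and 3 zeta (GSTZ) probe sets, and 2 of GSTIR, a gene with no class letter and GmTIR as its other name. Whether GSTIR encodes a GST could not be told from the annotation, so the counts are also given without it.

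GSTs join the tripeptide glutathione to electrophilic molecules such as herbicides, lipid peroxidation products and other reactive carbonyls, and some reduce peroxides with it. Tau and phi are the large classes of plants and are best known for herbicide detoxification and for responding to stress and hormones. Lambda members have a cysteine at the active site and act in thiol exchange, theta members act as glutathione peroxidases, and zeta members isomerise maleylacetoacetate in the breakdown of tyrosine. In soybean much of the glutathione pool is homoglutathione, in which beta-alanine replaces glycine.

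Total RNA from leaves of the cultivar Williams 82 was measured on 16 Affymetrix arrays, 4 for each state, with no mutant, transgene or chemical in any group. All plants had been raised at 22 °C, with light of 350 µmol per square metre per second for 10 h a day and 60% humidity. Baseline leaves came from plants at the growth temperature, optimum leaves from plants warmed until photosynthesis peaked, and the last groups from plants warmed further, until photosynthesis had dropped 20% or 30% below that peak. Warming ran in steps of 2 °C towards 42 °C over a curve of 3 to 4 h. The temperature reached cannot be told apart from the time elapsed. Each state had 4 plants per the labels, which leave unsaid whether 1 plant was sampled at more than 1 state, and p-values measure the spread among these arrays.

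The values are MAS5 signal intensities, 1 per probe set and array on a linear scale, which the authors had scaled to a common trimmed mean. A change is a difference of mean log2 intensities, given with its standard error (SE). A probe set was tested where its mean log2 signal over the 16 arrays was above the median of all probe sets, 6.08 or a signal of 67.6, which 30517 probe sets passed. The test was limma's moderated test over all 4 states, and adjusted p is the Benjamini-Hochberg value over the 30517, with a threshold of 0.05. A level cannot be set against that of another probe set. The array background, taken as the 95th percentile of the probe sets whose identifiers begin with PsAffx or HgAffx, which the array carries for pathogens of soybean, averaged 81.8 ± 7.0 on baseline arrays, 86.2 ± 11.9 on optimum arrays, 125 ± 28.1 at 20% and 112 ± 30.8 at 30% inhibition (SD, n = 4 each). Against baseline an exact two-sided permutation test of this level gave p = 0.6 at the optimum, 0.0286 at 20% and 0.0857 at 30% inhibition, or 0.6, 0.0857 and 0.129 adjusted over the 3 tests. With 4 against 4 arrays 0.0286 is the smallest p this test can give, so 1 state alone could not pass 0.05 after adjustment. All 20% inhibition arrays, the lowest at 99.6, were above all baseline arrays, the highest at 91.2. The third 20% inhibition array had the highest background, 163. Of 17 probe sets of leaf markers such as Rubisco activase and chlorophyll-binding proteins, 14 were above this background on all 16 arrays. The 5 nodule probe sets included 1 above it on all arrays and 2 below it on all. Of 16 seed probe sets 3 were above it on all arrays and 11 below it on all. Because these are whole leaves, fewer cells of a type and less RNA per cell cannot be told apart in any value below.

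Of the 58 member probe sets, 45 of 30 genes passed the signal filter. These were 30 tau probe sets of 22 genes and 15 others of 8 genes: 4 phi, 4 lambda, 2 theta, 3 zeta and 2 of GSTIR. On all 16 arrays 36 of the 45 were above the array background. The other 13 probe sets were not tested. They belong to GSTU5, GSTU16, GSTU43, GSTU44, GSTF7, GSTF11 and GSTL1, and, as additional probe sets of genes measured elsewhere on the array, to GSTU9, GSTU17, GSTU18, GSTU47, GSTF5 and GSTL7. None of the 13 was above the array background on all 4 arrays of any state. The GSTU5 probe set read 32.7, 18.8, 13.5 and 11.7 at 30% inhibition, against 309.9, 64.6, 160.3 and 58.9 at baseline, and its mean fell short of the filter.

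At the optimum 6 member probe sets rose and 5 fell against baseline, 24.4% of the 45, where 12.9% of all tested probe sets were called (6.63% higher, 6.26% lower). At 20% inhibition 10 rose and 7 fell, 37.8% of the 45, close to the 35.6% called among all tested (17% higher, 18.6% lower). At 30% inhibition 15 rose and 5 fell, 44.4% of the 45, beside 34.7% of all tested (16.9% higher, 17.7% lower), but 33.3% of the 27 members whose probe sets carry no suffix for shared or unspecific probes. By gene, 13 genes had a probe set that rose at 30% inhibition and 4 genes one that fell, with GSTF5 in both groups. The median change of the 45 was 0.19 at the optimum, 0.19 at 20% and 0.25 at 30% inhibition, while the median of all tested probe sets was within 0.01 of no change in each. In the moderated F-test over the 4 states 23 members passed (51.1%), beside 35.5% of all tested. Without GSTIR the counts among 43 probe sets were 4 higher and 5 lower at the optimum, 8 and 7 at 20%, and 13 and 5 at 30% inhibition.

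The split into higher and lower depends on the scaling. Centring each array on its median moved the median change of all tested probe sets by -0.04 at the optimum, -0.32 at 20% and -0.23 at 30% inhibition. Under that scaling 2 members rose and 4 fell at the optimum, 7 and 10 at 20%, and 13 and 8 at 30% inhibition. Centring shifts all probe sets of an array alike, so it cannot move the member median relative to that of all tested. At 30% inhibition that difference was 0.26 with and without centring. Calls against baseline that were lost under that scaling were GSTL3, GSTL7 and 1 probe set each of GSTT1, GSTIR and GSTU47 at the optimum, GSTU30 and 1 probe set each of GSTU41 and GSTF5 at 20% inhibition, and GSTU18 and GSTU27 at 30% inhibition. Falls that passed under it but not with the deposited scaling were GSTU17, GSTU51 and GSTU59 at 20% and GSTU9, GSTU51 and GSTZ2 at 30% inhibition. Against the optimum it lost GSTL7, GSTU37, GSTU51 and 2 probe sets of GSTU47 at 20% inhibition, where GSTU1, GSTU59 and GSTZ2 then fell, and GST3, GSTL7, GSTU18, GSTU37 and GSTU51 at 30% inhibition. With the array background as a covariate, 10, 12 and 18 members were called at the optimum, 20% and 30% inhibition.

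**Figure D1:**
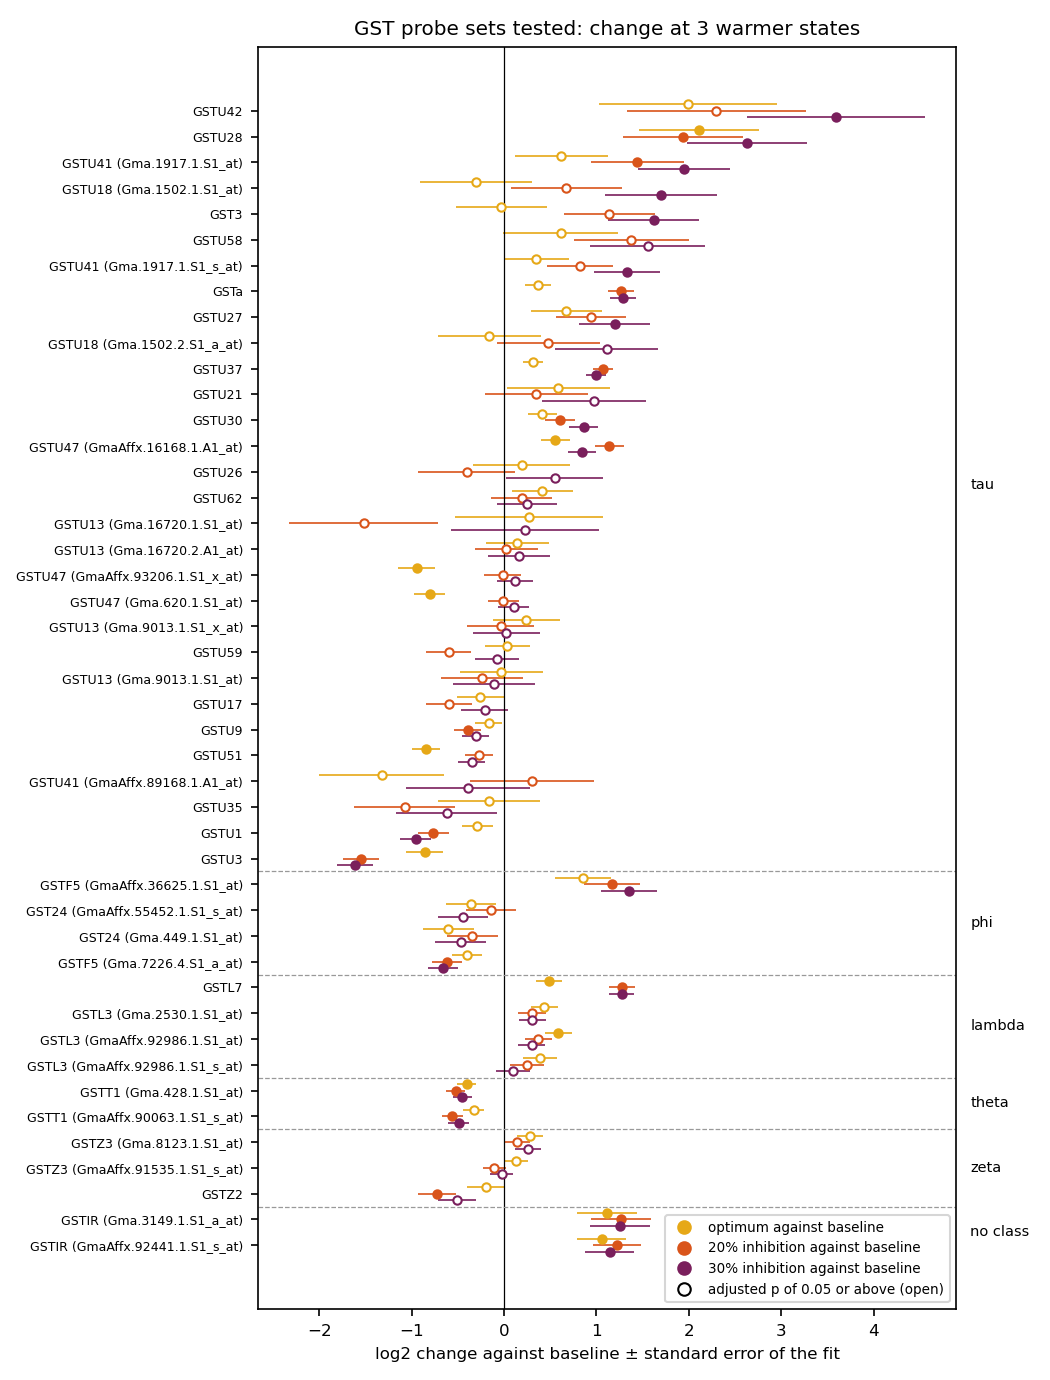
Log2 change against baseline with its standard error (x axis) for the 45 GST probe sets tested (y axis, by class), at the optimum, 20% and 30% inhibition, with filled points where adjusted p was under 0.05. GSTU42 and GSTU28 stand furthest to the right and GSTU3 furthest to the left among the called changes.

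The tau class held both the largest rises and the largest falls. At 30% inhibition its changes ranged over -1.61 to 3.59, with 11 of 30 probe sets higher and 2 lower, and a median of 0.40. The other classes ranged over -0.66 to 1.35, with 4 of 15 higher and 3 lower, and a median of 0.10. At the optimum 2 tau probe sets rose and 4 fell, beside 4 that rose and 1 that fell among the others. At 20% inhibition 6 tau probe sets rose and 3 fell, beside 4 and 4 of the others. Of tau probe sets 6.67% were higher and 13.3% lower at the optimum, 20% and 10% at 20%, and 36.7% and 6.67% at 30% inhibition. Of the others these shares were 26.7% and 6.67%, 26.7% and 26.7%, and 26.7% and 20%. Of all tested probe sets they were 6.63% and 6.26%, 17% and 18.6%, and 16.9% and 17.7%. Of the 4 non-tau rises in each state, 2 at the optimum, 2 at 20% and 2 at 30% inhibition were the pair of GSTIR probe sets. The median size of change at 30% inhibition, ignoring sign, was 0.85 in tau, 0.47 in the others and 0.41 over all tested probe sets. Tau probe sets also varied more among arrays of the same state: the median SD of log2 signal within states was 0.57 in tau and 0.24 in the others, beside 0.30 over all tested. These class values are descriptions, and the difference between the classes was not tested. Under median centring 9 tau probe sets rose and 4 fell at 30% inhibition.

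**Figure D2:**
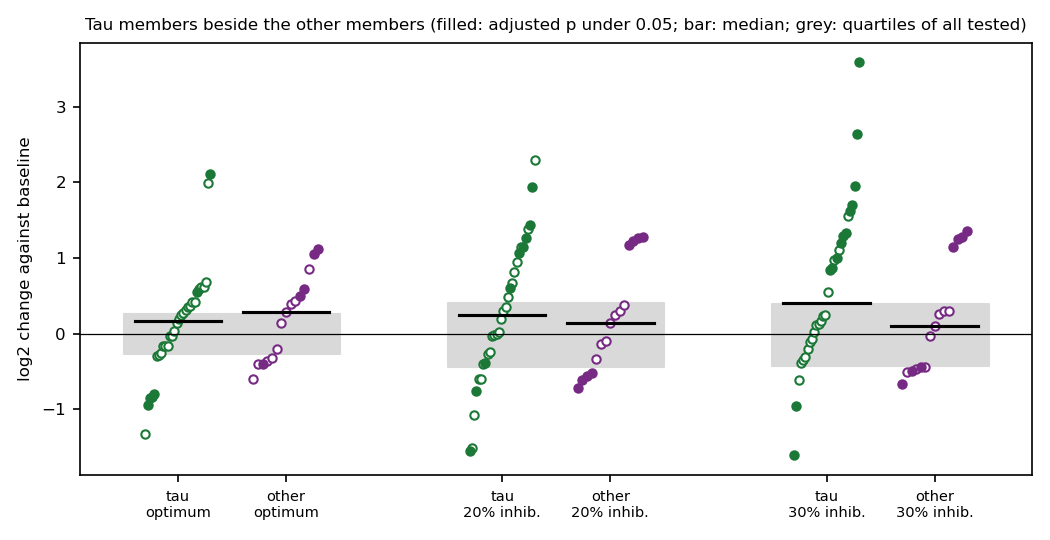
Log2 change against baseline (y axis) of the 30 tau and 15 other tested probe sets at each warmer state (x axis), with filled points for adjusted p under 0.05, a bar at the median, and the quartiles of all tested probe sets in grey. Tau points spread more widely than the others in each state, on both sides of 0 at 20% and 30% inhibition.

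GSTU42 had the largest change of any member, and also the largest scatter. It read 3837, 2500.3, 1591 and 955 at 30% inhibition, against 332, 53.1, 35.5 and 1107 at baseline. It read 559, 1155, 382 and 693 at the optimum and 959.5, 796, 3521 and 152 at 20% inhibition. The fourth baseline array was brighter than the dimmest 30% inhibition array, so these groups overlapped, and on 2 of 4 baseline arrays the probe set was below the array background. Its change at 30% inhibition was 3.59 ± 0.96 (SE, n = 4 per state, limma adjusted p = 0.00814). With readings below the array background raised to it, the change was 3.14. At the optimum (1.99 ± 0.96, limma adjusted p = 0.206) and 20% inhibition (2.30 ± 0.96, limma adjusted p = 0.0736) it did not pass.

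GSTU28 was the only tau gene that rose in all 3 warmer states with no baseline array as high as any warm array. It read 936, 624, 649 and 939 at baseline, 1517, 8237, 1299 and 7714 at the optimum, 1593, 1426, 4253 and 7857 at 20% and 7113, 7159.8, 5961 and 1745 at 30% inhibition. Within each warm state some arrays were several times brighter than others, and the 3 warm states overlapped. The changes were 2.11 ± 0.65, 1.93 ± 0.65 and 2.63 ± 0.65 in order of warming, the last a 6.21-fold rise (limma adjusted p = 0.0415, 0.0284 and 0.00469). The optimum call was lost without any 1 baseline array, the second or the fourth optimum array or the third 30% inhibition array, and the 20% call without the second or the third baseline or the third or the fourth 20% inhibition array. Both were lost with the array background as a covariate. With the replicate number as a block the optimum call was lost, and with array weights the 20% call. The 30% call was kept in all alternatives run.

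GSTU41, GSTU18, GST3 and GSTU27 also rose at 30% inhibition. For GSTU41 the probe set Gma.1917.1.S1_at read 1696, 1569.9, 1106 and 1828 at 30% inhibition, against 542, 183, 212 and 1149 at baseline. All but the fourth baseline array lay below the 30% inhibition arrays. Its change was 1.44 ± 0.50 at 20% and 1.95 ± 0.50 at 30% inhibition (limma adjusted p = 0.0338 and 0.00628), and the 20% call was lost without the second or the third baseline array or any of the first 3 arrays at 20% inhibition. A second probe set of GSTU41, Gma.1917.1.S1_s_at, changed by 1.33 ± 0.36 at 30% inhibition (limma adjusted p = 0.00812), and a dim one, GmaAffx.89168.1.A1_at, gave -0.39 ± 0.67 and did not pass.

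GSTU18 read 608, 349, 371 and 261 at 30% inhibition, against 155, 49.2, 114 and 213 at baseline, on the probe set Gma.1502.1.S1_at. The groups did not overlap, and the 4 optimum arrays, at 139, 177, 41.1 and 79.0, were also all lower. On only 3 of 4 baseline and 2 of 4 optimum arrays was this probe set above the array background. Its changes therefore rest partly on readings below that background. Its change at 30% inhibition was 1.70 ± 0.60 against baseline (limma adjusted p = 0.0377) and 2.00 ± 0.60 against the optimum (limma adjusted p = 0.0358). The other tested GSTU18 probe set changed by 1.11 ± 0.56 and did not pass (limma adjusted p = 0.136). GST3, which the annotation also calls GSTU53 and glyoxalase I, read 418, 1158, 507 and 673 at 30% inhibition, against 288, 203, 117 and 270.1 at baseline. Those groups did not overlap, and the change was 1.62 ± 0.49 (limma adjusted p = 0.0175). Without the third baseline array or the second 30% inhibition array the GST3 call was lost, as it was with the array background as a covariate. The GSTU18 call against baseline was lost without the second or the third baseline array and without any of the first 3 arrays at 30% inhibition. It was also lost with no signal filter, with the array background as a covariate and with the replicate number as a block. The GSTU18 call against the optimum was lost without the third or the fourth optimum array or any of the first 3 arrays at 30% inhibition. The same covariate and the same block also removed it. GSTU27 read 1232, 622, 366 and 428 at 30% inhibition, against 205, 342, 192 and 323 at baseline, without overlap, a change of 1.20 ± 0.38 (limma adjusted p = 0.0223), which was lost without the first or the third baseline array or the first 30% inhibition array.

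GSTa (other name GSTU48), GSTU37 and GSTU30 rose with little scatter among the arrays of each inhibition state. GSTa read 25885, 22077, 26529.7 and 23860.2 at 20% and 22449, 25512, 23839 and 27758 at 30% inhibition, against 11479.7, 7817, 8928 and 13368 at baseline. All 8 inhibition arrays were above all baseline arrays and above the 4 optimum arrays, which read 12742, 14560.0, 12395 and 12783. The change was 1.27 ± 0.14 at 20% and 1.29 ± 0.14 at 30% inhibition (limma adjusted p = 3.33e-06 and 3.01e-06), and 0.91 ± 0.14 at 20% inhibition against the optimum (limma adjusted p = 0.000361). GSTU37 read 42388, 36044, 39027 and 41435 at 20% and 32601, 38566, 35716 and 44701 at 30% inhibition, against 19868, 17096, 19578 and 19159.8 at baseline. The groups were far apart, and the changes were 1.07 ± 0.11 and 0.99 ± 0.11 (limma adjusted p = 1.8e-06 and 3.9e-06). Its optimum arrays, from 21116 to 26608, also lay above every baseline array, but the change of 0.32 ± 0.11 did not pass (limma adjusted p = 0.0746). GSTU30 read 23198, 25599, 22769.7 and 23517 at 30% inhibition, against 12774, 12094, 12653 and 14956 at baseline, and rose by 0.61 ± 0.16 at 20% and 0.86 ± 0.16 at 30% inhibition (limma adjusted p = 0.00692 and 0.000507). Its 20% call was lost with quantile scaling.

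**Figure D3:**
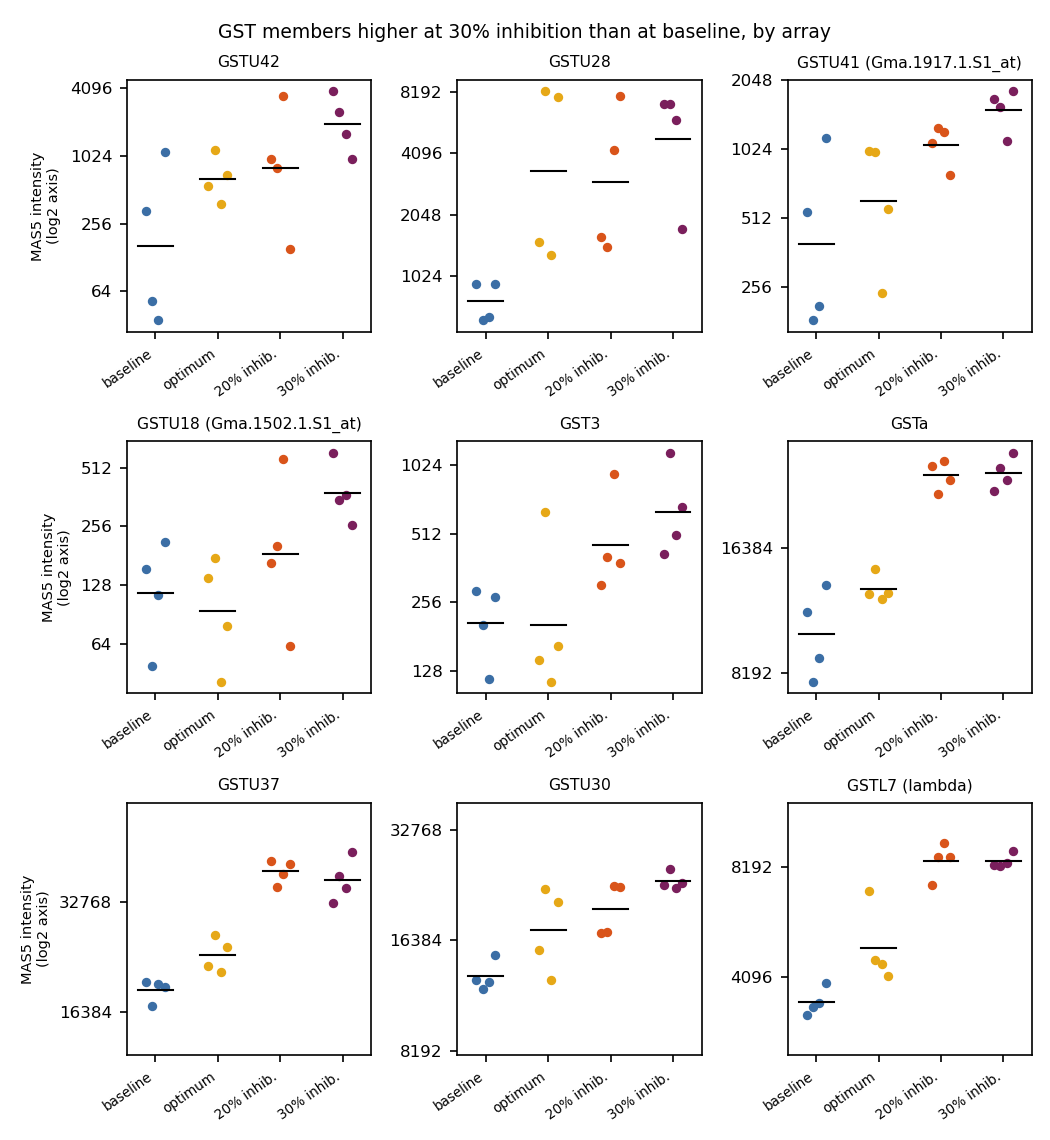
MAS5 intensity on a log2 axis (y axis) on each array at the 4 states (x axis) for 9 members higher at 30% inhibition than at baseline, with a bar at the mean of the log2 values. GSTU42 and GSTU28 scatter widely within states, while GSTa, GSTU37 and GSTL7 form tight groups that separate at 20% and 30% inhibition.

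The main tau falls were in GSTU3 and GSTU1. GSTU3 read 17031, 15029, 19182 and 15365 at baseline, 8288, 7275, 11848 and 9776 at the optimum, 6411, 6674, 3518 and 6859 at 20% and 5228, 5995, 6189 and 4455 at 30% inhibition. All 12 warm arrays were below all baseline arrays, and all 8 inhibition arrays were below the optimum arrays. The change was -0.86 ± 0.20 at the optimum, -1.55 ± 0.20 at 20% and -1.61 ± 0.20 at 30% inhibition (limma adjusted p = 0.00843, 1.43e-05 and 1.01e-05). Against the optimum it was -0.69 ± 0.20 at 20% and -0.75 ± 0.20 at 30% inhibition (limma adjusted p = 0.0245 and 0.0172). The first of these was lost without the third 20% inhibition array (-0.46) or the third or the fourth optimum array. The second was lost without the third optimum or the fourth 30% inhibition array. Both calls against the optimum were lost with the array background as a covariate. GSTU1 read 4237, 3753, 4046 and 3931 at 20% and 3517, 3159.8, 2698 and 5018 at 30% inhibition, against 6390.2, 7613, 8199 and 5306 at baseline. Neither inhibition state overlapped baseline, and the changes were -0.77 ± 0.17 and -0.95 ± 0.17 (limma adjusted p = 0.00194 and 0.00034). With the array background as a covariate the GSTU1 change at 20% inhibition was -0.52 and did not pass. GSTU1 did not pass at the optimum (-0.29 ± 0.17, limma adjusted p = 0.307), where its arrays overlapped baseline.

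Another tau gene, GSTU51, passed as lower at the optimum alone. GSTU51 read 543, 525, 568 and 479 at the optimum, against 951, 1132, 1019 and 733 at baseline, a change of -0.84 ± 0.15 (limma adjusted p = 0.00132). The optimum arrays were below every array of the other 3 states. At 20% and 30% inhibition its changes of -0.27 ± 0.15 and -0.35 ± 0.15 did not pass, and both states were higher than the optimum, by 0.57 ± 0.15 and 0.49 ± 0.15 (limma adjusted p = 0.0158 and 0.0376). The last of these calls was lost without any 1 of the optimum arrays or without the first, the third or the fourth 30% inhibition array. No signal filter and the replicate number as a block also removed it. With the array background as a covariate both calls of GSTU51 against the optimum were lost. GSTU9 fell at 20% inhibition alone, by 0.39 on the log2 scale (SE 0.15, limma adjusted p = 0.0482). This call was lost in 11 of the 16 fits that left out 1 array, and with the array background as a covariate. Quantile scaling, no signal filter and the replicate number as a block also removed it.

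The 3 tested probe sets of GSTU47, whose other names are GST and GST2, did not move together. On Gma.620.1.S1_at the optimum arrays read 10169, 12363, 6737 and 8313, against 15352, 16422, 15115 and 17239 at baseline, without overlap. The change was -0.81 ± 0.17 at the optimum (limma adjusted p = 0.00429), while 20% and 30% inhibition were within 0.11 of baseline and were 0.80 ± 0.17 and 0.91 ± 0.17 above the optimum (limma adjusted p = 0.00377 and 0.00164). GmaAffx.93206.1.S1_x_at followed the same course, with -0.95 ± 0.20 at the optimum (limma adjusted p = 0.00444). GmaAffx.16168.1.A1_at went the other way. It read 1772, 1746, 1242 and 1183 at the optimum and 2153, 2198, 2415 and 2028 at 20% inhibition, against 973, 1265, 928 and 855 at baseline. It rose by 0.55 ± 0.16 at the optimum, 1.14 ± 0.16 at 20% and 0.85 ± 0.16 at 30% inhibition (limma adjusted p = 0.0259, 2.71e-05 and 0.000471), and only its 20% and 30% inhibition arrays were clear of baseline. The optimum call was lost without the first, the third or the fourth baseline or the first or second optimum array. Which of these probe sets measures the GSTU47 transcript alone was not tested.

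The remaining tau members passed in no state against baseline. They were the 4 probe sets of GSTU13 and those of GSTU17, GSTU21, GSTU26, GSTU35, GSTU58, GSTU59 and GSTU62, besides the dim probe set of GSTU41 and the second of GSTU18. The largest of these changes at 30% inhibition was in GSTU58, 1.55 ± 0.62 (limma adjusted p = 0.0634), with 143, 244, 183 and 59.1 at 30% inhibition, against 21.7, 58.1, 49.3 and 81.5 at baseline. GSTU35 was below the array background on all 4 arrays at 20% inhibition, with readings of 89.6, 15.3, 56.2 and 86.3 there and 104, 60.9, 176 and 118 at baseline. GSTU59 read within a narrow 137 to 147 at 20% inhibition and 174 to 267 at baseline, yet its change of -0.60 ± 0.24 did not pass (limma adjusted p = 0.0614).

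Among lambda members GSTL7 rose at every warmer state. It read 7293, 8692, 9497 and 8723 at 20% and 8307, 8228, 8406 and 9046 at 30% inhibition, against 3247, 3407, 3489.6 and 3958 at baseline. The optimum arrays, at 7044, 4569, 4468 and 4134, lay between, without overlap on either side. Its changes were 0.49 ± 0.14, 1.28 ± 0.14 and 1.27 ± 0.14 in order of warming (limma adjusted p = 0.0282, 3.03e-06 and 3.17e-06), and 20% and 30% inhibition exceeded the optimum by 0.79 ± 0.14 and 0.78 ± 0.14 (limma adjusted p = 0.00111 and 0.00135). The optimum call was lost without the first optimum array or any of the first 3 baseline arrays, and with the replicate number as a block. GSTL3 had 3 tested probe sets, of which GmaAffx.92986.1.S1_at rose at the optimum. It read 9475, 7111, 9441 and 7419 at the optimum, against 4291, 6106, 6458 and 5447 at baseline, a change of 0.59 ± 0.15 (limma adjusted p = 0.0144). The other GSTL3 probe sets gave 0.43 ± 0.15 and 0.39 ± 0.18 there and did not pass, and none of the 3 passed at 20% or 30% inhibition. The GSTL3 call was lost without the first baseline array (0.47).

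The 2 theta probe sets, both of GSTT1, fell by similar amounts. On Gma.428.1.S1_at the readings were 2549, 2528, 2423 and 2382 at baseline, 1869.8, 1932, 1667 and 2028 at the optimum, 1657, 1978, 1763 and 1503 at 20% and 1745, 1837, 1656 and 2016 at 30% inhibition. Every warm array was below every baseline array. The changes were -0.40 ± 0.10, -0.52 ± 0.10 and -0.45 ± 0.10 in order of warming (limma adjusted p = 0.0153, 0.00074 and 0.0026). GmaAffx.90063.1.S1_s_at changed by -0.56 ± 0.11 at 20% and -0.49 ± 0.11 at 30% inhibition (limma adjusted p = 0.00105 and 0.00309), and by -0.33 ± 0.11 at the optimum, which did not pass (limma adjusted p = 0.0715). Without the third optimum array the optimum call of the first probe set was lost (-0.35).

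Of the zeta genes GSTZ2 fell at 20% inhibition. It read 873, 1057, 1115 and 599.9 there, against 1579, 1311, 1447 and 1537 at baseline, without overlap, a change of -0.72 ± 0.20 (limma adjusted p = 0.0105). At 30% inhibition, with 1125, 1137, 693 and 1256, it was again below all baseline arrays but did not pass (-0.51 ± 0.20, limma adjusted p = 0.0616). The 20% call was lost with the array background as a covariate. The 2 probe sets of GSTZ3 passed in no state, with changes between -0.10 and 0.28.

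The 2 called probe sets of the phi gene GSTF5 moved in opposite directions. Gma.7226.4.S1_a_at read 1464, 1756, 1317 and 1597 at 30% inhibition, against 2427, 2437, 2133 and 2684 at baseline, without overlap. It fell by 0.62 at 20% and 0.66 at 30% inhibition on the log2 scale (SE 0.16 each, limma adjusted p = 0.00624 and 0.00397). GmaAffx.36625.1.S1_at read 805, 834, 509.6 and 671 at 30% inhibition, against 218, 215, 224 and 512 at baseline, where the fourth baseline array reached the dimmest 30% inhibition array. It rose by 1.17 ± 0.30 at 20% and 1.35 ± 0.30 at 30% inhibition (limma adjusted p = 0.0062 and 0.00234). Which of the pair measures the GSTF5 transcript alone was not tested. The 2 probe sets of the other phi gene, GST24 (other name GSTF10), passed in no state, with changes between -0.60 and -0.14.

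The 2 probe sets of GSTIR rose in all 3 warmer states. GmaAffx.92441.1.S1_s_at read 539.9, 663, 381 and 430.0 at baseline, 1022, 1199, 905 and 990.1 at the optimum, 1139.7, 1192, 1667 and 771 at 20% and 1329, 1566, 1041 and 642 at 30% inhibition. Apart from the fourth 30% inhibition array, every warm array was above every baseline array. Its changes were 1.06 ± 0.26, 1.22 ± 0.26 and 1.14 ± 0.26 in order of warming (limma adjusted p = 0.0132, 0.00155 and 0.00276), and those of Gma.3149.1.S1_a_at were 1.12 ± 0.32, 1.27 ± 0.32 and 1.25 ± 0.32 (limma adjusted p = 0.0314, 0.00579 and 0.00647). With the array background as a covariate the 20% call of GmaAffx.92441.1.S1_s_at was lost. The optimum call of Gma.3149.1.S1_a_at was lost without the third or the fourth baseline array or any of the first 3 optimum arrays.

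**Figure D4:**
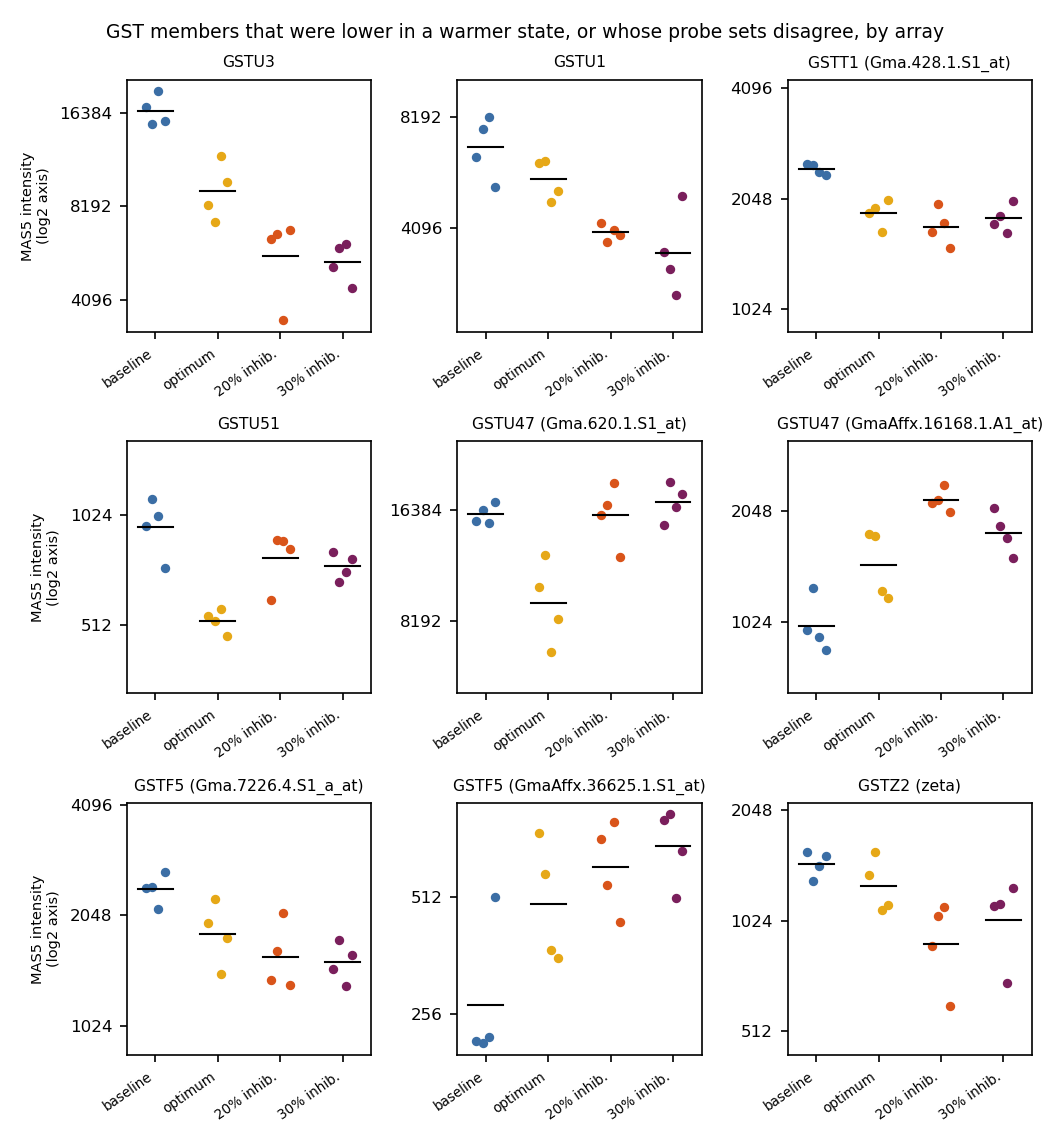
MAS5 intensity on a log2 axis (y axis) on each array at the 4 states (x axis) for probe sets that were lower in a warmer state, or whose gene has probe sets of opposite course, with a bar at the mean of the log2 values. GSTU3 steps down from state to state, GSTU51 and GSTU47 (Gma.620.1.S1_at) are lowest at the optimum, and the 2 GSTF5 panels run in opposite directions.

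Between the warm states, 7 members rose and 1 fell at 20% inhibition against the optimum, 17.8% of the 45, beside 16.6% of all tested (7.87% higher, 8.7% lower). At 30% inhibition against the optimum 8 rose and 2 fell, 22.2%, beside 14% of all tested (6.86% higher, 7.12% lower). Under median centring these splits were 2 higher and 4 lower, and 3 higher and 2 lower. At 30% against 20% inhibition limma called 0 members and 0% of all tested probe sets. At an unadjusted p under 0.05 that last comparison had 2 members, GSTU13 and GSTU59, and 1193 of all tested, and a fit with array weights also called 0.

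Read against baseline over the 3 warm states in order, the calls of the 45 probe sets fell into 9 courses. In 19 probe sets, 13 of them tau, no state passed. In 5, all tau (GST3, GSTU27, GSTU42 and 1 probe set each of GSTU18 and GSTU41), 30% inhibition alone was higher. In another 5 both inhibition states were higher but not the optimum: GSTU30, GSTU37, GSTa, another probe set of GSTU41 and 1 of GSTF5. A further 5 were higher in all 3 states: GSTU28, GSTL7, 1 probe set of GSTU47 and both of GSTIR. The optimum alone was lower in GSTU51 and 2 probe sets of GSTU47, and it alone was higher in 1 probe set of GSTL3. All 3 states were lower in GSTU3 and 1 probe set of GSTT1. The 2 inhibition states were lower in GSTU1, the other GSTT1 probe set and 1 of GSTF5, and 20% inhibition alone in GSTU9 and GSTZ2. A call in one state and none in another does not show that the states differ. How often each course occurred among all tested probe sets was not counted, and 30 of the 45 are tau.

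Several member genes lie beside each other in the gene order that RefSeq gives for the assembly Glycine_max_v4.0. With at most 10 other genes between neighbours, 19 of the 37 genes fell into 7 clusters. GSTU1 and GSTU3, the tau genes that fell at both inhibition states, have 1 gene between them. GSTU26, GSTU27, GSTU28 and GSTU30 form a cluster in which GSTU27, GSTU28 and GSTU30 rose at 30% inhibition and GSTU26 gave 0.55 ± 0.53 and did not pass (limma adjusted p = 0.458). GSTU37 and GSTU41 have 6 genes between them. GSTU37 rose at 20% and 30% inhibition, as did the GSTU41 probe set Gma.1917.1.S1_at. Another GSTU41 probe set passed at 30% inhibition alone, and the dim one passed in neither state. The cluster of GSTU47, GSTa, GSTU51 and GST3 was mixed: GSTa and GST3 rose at 30% inhibition, and GSTU51 fell at the optimum. The remaining clusters did not move together. GSTZ2 fell at 20% inhibition (-0.72), where the GSTZ3 probe sets gave 0.14 and -0.10 and did not pass. In the cluster of GSTU16, GSTU17 and GSTU18, a GSTU18 probe set rose at 30% inhibition (1.70). GSTU17 gave -0.21 there and did not pass, and GSTU16 was not tested. GSTU58 and GSTU59 gave 1.38 and -0.60 at 20% inhibition and passed in no state. Neighbouring genes of a family can have like sequences that bind the same probes, and 18 of the 45 tested probe sets carry the suffix that the array's maker gives to probe sets shared among transcripts or with unspecific probes. Among the 27 members without such a suffix 6 were called at the optimum, 9 at 20% and 9 at 30% inhibition, or 22.2%, 33.3% and 33.3%. Of all tested probe sets without the suffix 12.5%, 34.4% and 33.5% were called, so at both inhibition states the share among these members was at the rate of the whole array.

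Genes of the glutathione and ascorbate system, together with superoxide dismutases and catalases, were read from a list of 30 tested probe sets of 20 genes. In that list 3 rose and 1 fell at the optimum, 6 and 3 at 20%, and 7 and 3 at 30% inhibition, with medians of 0.10, 0.08 and 0.11. These are 13.3%, 30.0% and 33.3% of the list, beside 12.9%, 35.6% and 34.7% of all tested. Of the 30, 8 were superoxide dismutases and catalases, and without them 3 rose and 1 fell at the optimum, 3 and 3 at 20%, and 5 and 3 at 30% inhibition among 22. HGS, homoglutathione synthetase, which adds beta-alanine in the last step of homoglutathione synthesis, read 1462, 1288, 1333 and 1365 at 30% inhibition, against 3911, 4332, 3891 and 3687 at baseline. No arrays overlapped, and HGS changed by -0.67 ± 0.10, -1.58 ± 0.10 and -1.54 ± 0.10 in order of warming (limma adjusted p = 0.000227, 4.44e-09 and 6.48e-09). GLYII-6, a glyoxalase II that hydrolyses the glutathione thioester formed from methylglyoxal, rose on both its probe sets. On Gma.6593.2.S1_at it read 2889, 3061, 2738 and 3706 at 30% inhibition, against 1537, 1536, 1862 and 1256 at baseline, a change of 1.01 ± 0.13 (limma adjusted p = 1.61e-05). The other GLYII-6 probe set changed by 1.08 ± 0.15 (limma adjusted p = 2.75e-05). APX1, an ascorbate peroxidase, fell on Gma.4192.1.S1_at by 0.52 on the log2 scale (SE 0.10, limma adjusted p = 0.00092), with 2509, 2300.1, 2169 and 2621 at 30% inhibition and 3549.8, 2919.9, 3487 and 3851 at baseline. Another APX1 probe set, Gma.13160.1.S1_at, rose by 0.83 ± 0.14 (limma adjusted p = 0.000259). Further APX1 probe sets were tested and are not described here. GR, glutathione reductase, which returns oxidised glutathione to its reduced form, rose at 30% inhibition on 1 of its tested probe sets, by 0.31 ± 0.10 (limma adjusted p = 0.0306).

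**Figure D5:**
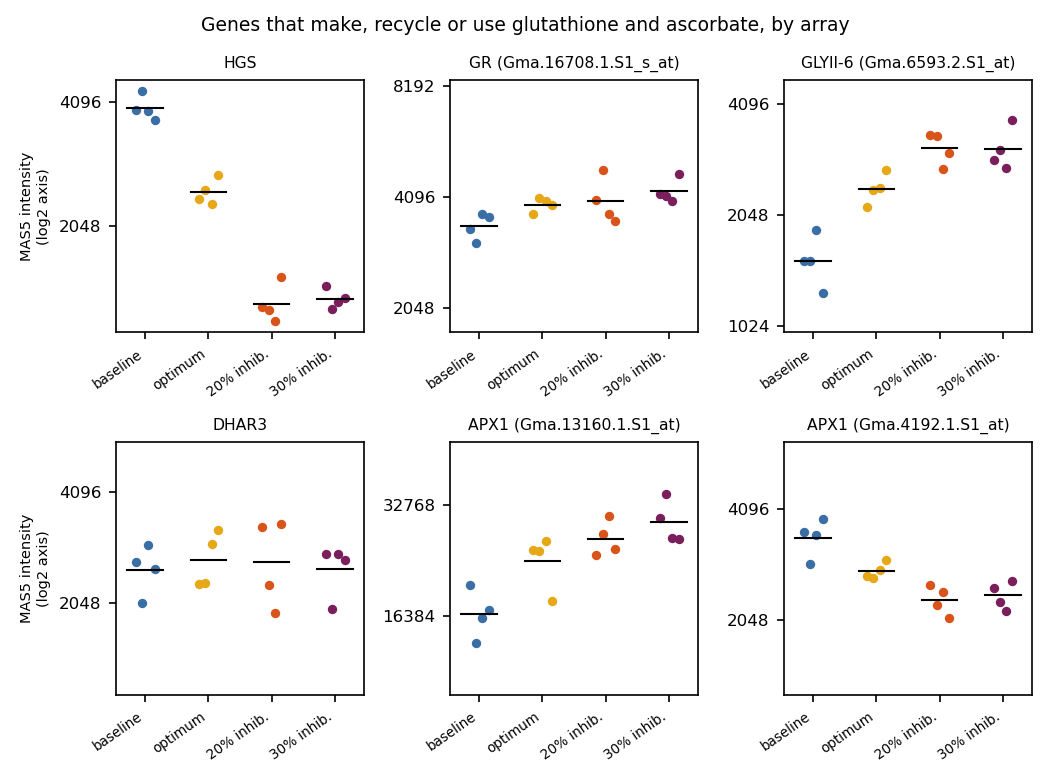
MAS5 intensity on a log2 axis (y axis) on each array at the 4 states (x axis) for genes that make, recycle or use glutathione and ascorbate, with a bar at the mean of the log2 values. HGS is lower at each warm state than at baseline with no overlap, and GLYII-6 is higher. The 2 APX1 probe sets shown, which are not all that were tested, run in opposite directions.

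A pair of other enzyme families had these counts. They were gathered by symbol or synonym alone and not by a role in detoxification. The UDP-glycosyltransferases, which attach sugars, had 7 tested probe sets of 5 genes. Of these probe sets 0 rose and 5 fell at 30% inhibition, 71.4% of them, with a median of -0.92. Of 41 tested cytochrome P450 probe sets, which belong to 26 genes, 11 rose and 19 fell, 73.2% of them, with a median of -0.58. Of all tested probe sets 16.9% were higher and 17.7% lower in that comparison. The GST median there was 0.25. These are descriptions, and the difference from the GSTs was not tested.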

How the data were processed

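Total RNA of soybean leaf was hybridised to 16 Affymetrix arrays, 4 per state. The authors deposited linear intensities that MAS5 had summarised per probe set, per the submitters' processing notes. Its version and settings were not given in the sources used here, and neither were detection calls. The number of arrays limits the precision.

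The deposited intensities were log2-transformed without an added constant. The 135 control probe sets were left out. Probe sets above the median mean log2 signal were tested with limma 3.58.1 (lmFit, and eBayes with a trend) in R 4.3.3, with 1 mean per state over all 16 arrays. Tests were two-sided, with Benjamini-Hochberg adjustment over the 30517 tested. On data simulated for 30% inhibition against baseline over those 30517 probe sets, the fit recovered 62% of doubled and 46% of halved probe sets. Of those changed by 2 on the log2 scale it recovered 80% up and 82% down, with 5.59% false calls. Far fewer probe sets were changed in the simulation than the 34.7% called in the data, so these rates do not measure recovery in the data.

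Gene names came from the platform annotation, and all 58 member identifiers were found in the RefSeq table of Glycine_max_v4.0. A further 4 probe sets that the annotation pairs with several genes, one of them a GST, were left out. No positions are printed, since the array's build was not stated. Related genes can bind the same probes.

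Members given per array were the 5 largest called rises and falls at each warm state against baseline, the 2 largest for each pair of warm states, the 4 brightest members, GSTU42, GSTU28, GSTU3 and GSTU1, and genes with called probe sets of opposite direction. GSTU27, GSTU9, GSTU58, GSTU59, GSTU35 and GSTU5 were added after their values were seen. Of the glutathione and ascorbate list the 2 largest called rises and falls at 30% inhibition were named. Another APX1 probe set and GR were added after their values were seen. The members and lists were chosen with earlier results of these data known.

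Alternatives were other scalings, filters, an added constant of 50, the array background as a covariate, array weights, a replicate block, 1 probe set per gene, members by symbol alone, and each array left out. Added after seeing the data were leaving out GSTIR, leaving out probe sets with the suffix _s_at, _x_at or _a_at, and keeping only members above background. Same-numbered arrays of different states did not deviate together: over 24 pairs the correlation of their deviations ran between -0.28 and 0.22, over 0.1 in 7, and 3 of 16 arrays correlated best with an array of their own number. The block is therefore an alternative only.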

Additional observations from a re-analysis of the deposited data

Results flagged for a closer look

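In 4 of the 92 state groups of the named probe sets, 1 array stood far from the other 3. Chance alone gives such a gap in about 1 in 20 groups. GSTU28 at 30% inhibition had its lowest array at 1745, with the others at 5961 to 7159.8. GSTU3 at 20% inhibition had its lowest array at 3518, with the others at 6411 to 6859. This is the array with the highest background, and without it the change of GSTU3 against the optimum was -0.46. GSTU51 at 20% inhibition had its lowest array at 599, with the others at 824 to 876. The GSTF5 probe set GmaAffx.36625.1.S1_at had its highest baseline array at 512, with the others at 215 to 224.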

How the results depend on the processing

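Counts of called GST probe sets kept within 1.5 times in 250 of 270 recomputed values. Among named log2 changes 989 kept their call, 78 lost it in the same direction and 2 reversed. Leaving out an array of a state outside the contrast cannot move the log2 change, only its adjusted p. At 30% against 20% inhibition a count of 0 beside 0 was scored as kept. These tallies therefore overstate how stable the results are. The count of 11 at the optimum against baseline became 6 with median centring, 6 with 1 probe set per gene and 6 without probe sets of shared suffix, and 7 to 12 with 1 array left out. It was 7 without the first or the third baseline array. The 17 at 20% inhibition became 9 without shared suffixes (15 to 19 with 1 array left out), and the 20 at 30% inhibition became 9 (17 to 22). The 8 at 20% inhibition against the optimum became 4 with the background covariate, 5 with members by symbol alone and 5 without shared suffixes (6 to 9). The 10 at 30% inhibition against the optimum became 5 with median centring, 5 with the background covariate, 6 by symbol alone and 6 without shared suffixes (6 to 11, the lowest without the third optimum array). The 23 in any state became 15 with the background covariate and 11 without shared suffixes (17 to 25). The tau count of 13 at 30% inhibition became 7 without shared suffixes (10 to 15), and the count of 7 in the others became 4 with 1 probe set per gene and 2 without shared suffixes (7 to 8). At 30% against 20% inhibition the count was 0 with any array left out (0 to 0). GSTU47 on Gma.620.1.S1_at at 30% inhibition, uncalled at 0.11, reversed to -0.059 with quantile scaling and -0.12 with median centring. The causes were not tested, except that fewer probe sets entered where some were left out. With the replicate number as a block the counts were 9 at the optimum, 16 at 20% and 20 at 30% inhibition, 8 and 8 against the optimum, 0 at 30% against 20% inhibition, 21 in any state, 13 in tau and 7 in the others.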
